A study of Mus musculus with 13 samples.

Results

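The genes described here are 10 markers of the liver sinusoidal endothelium (Stab1, Stab2, Lyve1, Clec4g, Pecam1, Kdr, Eng, Tek, Fcgr2b and Egfl7), taken by name with earlier results of these data known, and all 10 were among the 18138 genes of the deposited table. They were measured in liver RNA of 13 male B6C3F1 mice, 1 Illumina bead array per mouse. Treatment began at an age of 7 days, which is the age the labels give. There were 4 mice given dichloroacetic acid (DCA) at 3.5 g/L in the drinking water for 10 weeks and then deionized water for 90 weeks, 5 mice given phenobarbital (PB) at 0.06% on the same schedule, and 4 control mice given deionized water alone. DCA is a by-product of water chlorination, and PB is a barbiturate that promotes rodent liver tumours. The comparison asks whether exposure in early life left a mark on the liver long after dosing had ended. The tissue was a piece of archived frozen liver, and the labels do not say whether a piece held tumour. Each array is a different animal, so errors below include the spread between animals.

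Sinusoidal endothelial cells line the capillaries of the liver. They lack a continuous basement membrane, are perforated by fenestrae, and clear waste macromolecules from blood through scavenger and Fc receptors such as the stabilins and the inhibitory receptor Fcgr2b. Their identity depends on signals from hepatocytes and neighbouring cells, among them vascular endothelial growth factor acting on Kdr, angiopoietins acting on Tek, and ligands of the bone morphogenetic protein family whose co-receptor is Eng. These cells lose several of these markers and gain those of ordinary capillaries when sinusoids are remodelled.

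The levels are log2 normalised intensities, and 1 probe's level cannot be set against another's. A gene was called detected on an array when its detection p-value, which sets its signal against the negative control probes, was under 0.05. Mean raw intensity per array ran between 188.6 and 462, and 7141 to 8458 genes were detected. The liver label fits the hepatocyte list, of which 7 of 9 measured genes were detected on all 13 arrays. Fgb, a fibrinogen chain of hepatocytes, was detected on none. One array stood apart for the endothelial markers. PB replicate 1 had the lowest level of 7 of the 10 markers, and it was the lowest array for 18.3% of all genes tested. The comparisons that use PB mice are therefore also given without it.

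No endothelial marker passed the test between DCA, PB and control livers in any comparison, and the errors were wide. Of the 10 markers, 6 (Stab1, Stab2, Clec4g, Eng, Fcgr2b and Egfl7) were detected on all 13 arrays. Pecam1 was undetected only on PB replicate 1, and Tek was undetected on PB replicate 1 and control replicate 4. Kdr was detected on 2 of 4 DCA, 5 of 5 PB and 2 of 4 control arrays. Lyve1 was detected on 1 of 4 DCA, 3 of 5 PB and 0 of 4 control arrays. All 10 passed the filter used for testing (detected on at least 4 arrays), Lyve1 just so, and mainly through the PB arrays.

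**Figure D1:**
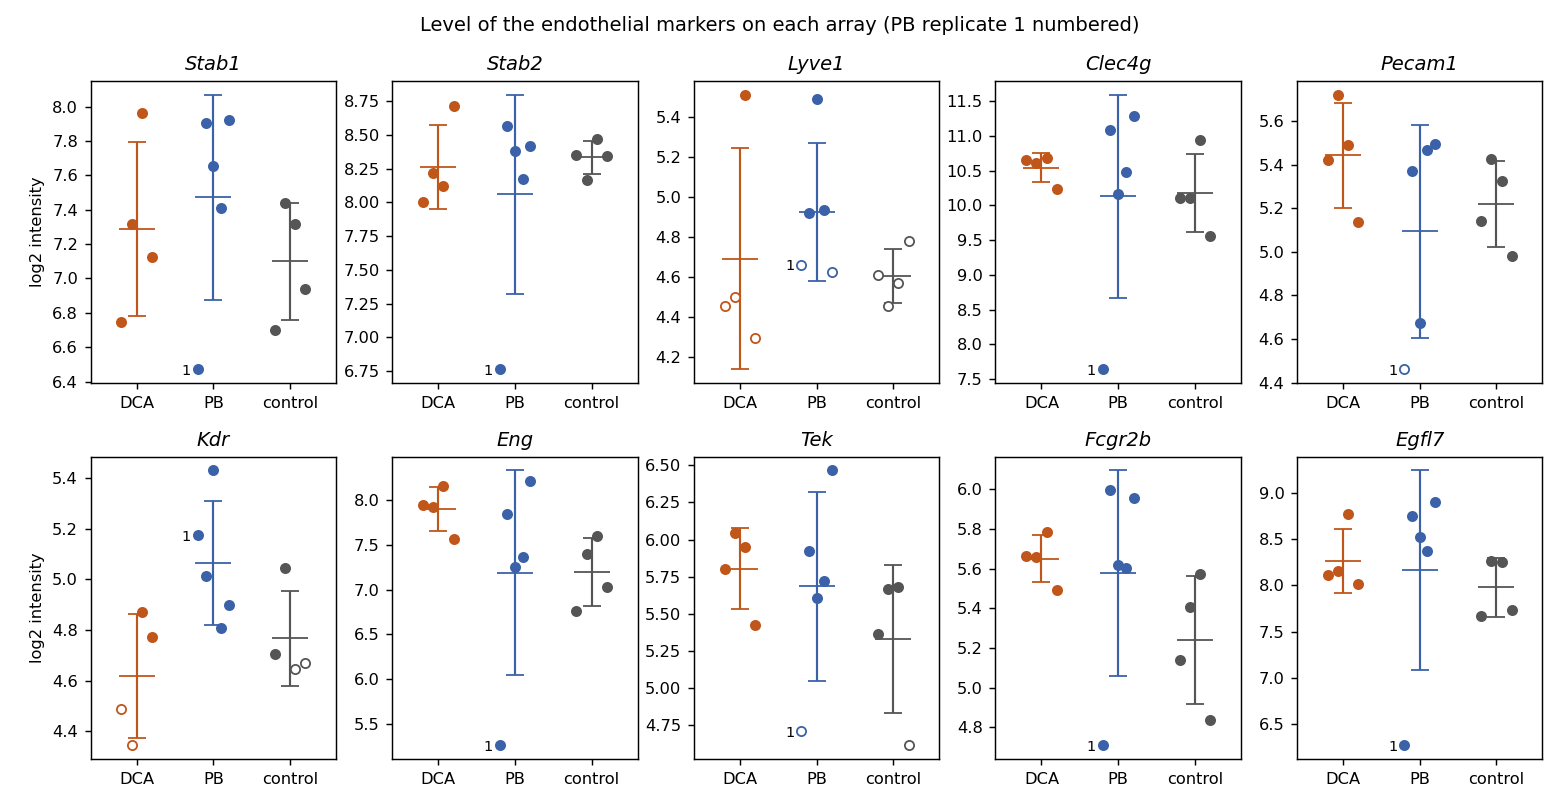
Log2 normalised intensity of each of the 10 endothelial markers on each array (points), with group means and SD bars, for DCA (n = 4), PB (n = 5) and control (n = 4) livers. One PB array lies far below the others for Clec4g, Eng, Egfl7 and Stab2 (7.64, 5.26, 6.27 and 6.76), and no marker separates 2 groups completely.

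Among the scavenger and uptake receptors, Clec4g had the widest spread. Clec4g, a C-type lectin also called LSECtin, had log2 levels of 10.65, 10.61, 10.68 and 10.23 on the DCA arrays, 7.64, 11.08, 10.16, 10.47 and 11.28 on the PB arrays, and 10.11, 10.11, 10.93 and 9.56 on the control arrays. The PB group held both the lowest and the highest array, and all DCA values lay inside the control range. Group means were 10.54 ± 0.21 for DCA, 10.13 ± 1.46 for PB and 10.18 ± 0.57 for control (SD, n = 4, 5 and 4). The range over all arrays was 12.5-fold, and 3.30-fold without PB replicate 1.

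Stab2, the hyaluronan-clearing stabilin, had log2 levels of 8.01, 8.22, 8.12 and 8.71 in DCA livers, 6.76, 8.56, 8.38, 8.18 and 8.42 in PB livers, and 8.36, 8.17, 8.47 and 8.34 in controls. Apart from the low PB replicate 1 its levels lay close together, with a range of 1.63-fold over the other 12 arrays, the narrowest of the 10 markers, and its groups overlapped. Stab1, its paralogue, which also marks some macrophages, had levels of 6.75, 7.32, 7.96 and 7.13 in DCA livers, 6.47, 7.90, 7.65, 7.41 and 7.92 in PB livers, and 6.70, 7.44, 7.32 and 6.94 in controls. For Stab1, 3 of 5 PB arrays lay above every control and 1 below every control.

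Fcgr2b, the inhibitory Fc receptor that takes up small immune complexes, had log2 levels of 5.67, 5.66, 5.78 and 5.49 in DCA livers, 4.71, 6.00, 5.62, 5.60 and 5.96 in PB livers, and 5.14, 5.41, 5.57 and 4.84 in controls. In DCA livers 3 of 4 arrays, and in PB livers 4 of 5, lay above the highest control, but the groups overlapped. Lyve1, a hyaluronan receptor shared with lymphatic endothelium, was near background, with levels of 4.46, 4.50, 5.51 and 4.30 in DCA livers, 4.66, 4.92, 5.49, 4.94 and 4.63 in PB livers, and 4.61, 4.46, 4.57 and 4.78 in controls. The lowest level called detected was between 4.59 and 4.84, depending on the array, so most of these Lyve1 values are at the limit. With all control arrays undetected, Lyve1 has only a bound there. Its mean was 4.93 in PB livers, of which 2 of 5 arrays were also undetected, and 4.60 in control livers, and neither a fold nor a test is given for it against control.

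Among the receptors for vascular growth signals, Eng was the member with the largest difference between DCA and control livers. Eng, the endothelial co-receptor also called endoglin, had log2 levels of 7.95, 7.92, 8.16 and 7.56 in DCA livers, 5.26, 7.85, 7.25, 7.36 and 8.21 in PB livers, and 6.76, 7.39, 7.60 and 7.03 in controls. In DCA livers 3 of 4 arrays lay above every control, and the fourth, at 7.56, lay just under the highest control, at 7.60. The DCA minus control difference was 0.70 ± 0.47 (SE, limma), with a 95% interval of -0.30 to 1.71, and it did not pass (adjusted p = 0.995). An exact two-sided permutation test of Eng alone gave p = 0.0571, where 4 against 4 arrays can reach 0.0286.

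Tek, the angiopoietin receptor, had log2 levels of 5.80, 6.04, 5.95 and 5.42 in DCA livers, 4.71, 5.93, 5.61, 5.72 and 6.47 in PB livers, and 5.37, 5.67, 5.68 and 4.62 in controls. Control replicate 4 was its lowest array and PB replicate 1 the next, and DCA and PB values overlapped with the controls. Kdr, the main receptor for vascular endothelial growth factor on endothelium, was close to background on most arrays, with levels of 4.49, 4.35, 4.87 and 4.77 in DCA livers, 5.17, 5.01, 5.43, 4.81 and 4.90 in PB livers, and 4.71, 5.05, 4.65 and 4.67 in controls. On PB replicate 1 Kdr was not low but had the second highest value of the 13 arrays. In DCA livers 3 of 4 Kdr values lay below every PB value, and 1 (4.87) lay above the lowest PB value (4.81).

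Of the adhesion and secreted proteins, Egfl7, which endothelial cells secrete into the vessel wall, had log2 levels of 8.11, 8.15, 8.78 and 8.01 in DCA livers, 6.27, 8.75, 8.52, 8.38 and 8.91 in PB livers, and 7.67, 8.26, 8.25 and 7.73 in controls. The PB group thus held 4 arrays above every control and 1 far below. Pecam1, a junction protein of all endothelium that platelets and leukocytes also carry, ran between 5.14 and 5.72 in DCA livers, 4.46 and 5.50 in PB livers, and 4.98 and 5.43 in controls, and the groups overlapped. The deposited values of Pecam1, Fcgr2b and Egfl7 combine several probes, and those of the other 7 markers come from single probes.

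**Figure D2:**
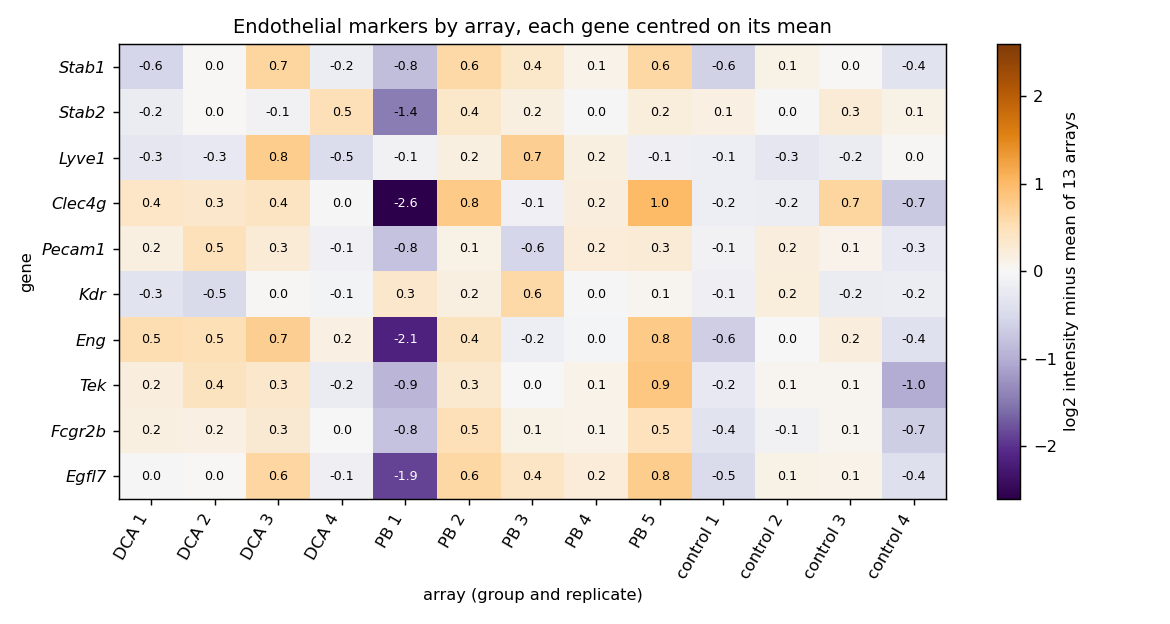
Level of each endothelial marker on each array minus that marker's mean over the 13 arrays (log2), with DCA, PB and control arrays from left to right. PB replicate 1 is low for most markers but not for Kdr and Lyve1, and DCA replicate 3 and PB replicates 2 and 5 are high for most.

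Against control, 9 markers were compared, since Lyve1 has only a bound there. DCA against control gave 7 higher and 2 lower (Stab2 and Kdr), with a median log2 difference of 0.29 against -0.01 over all 8431 genes tested. That median was 0.16 without control replicate 4, 0.15 with array weights, 0.12 on the authors' normalised values, 0.13 without background correction and 0.076 with a background model fitted on all rows. Other alternatives raised it. Scaling to equal medians gave 0.38, with 0.07 over all genes tested. Leaving out control replicate 3 gave 0.38, DCA replicate 4 gave 0.37, and control replicate 2 or DCA replicate 1 gave 0.34. Without DCA replicate 3 the counts were 6 higher and 3 lower (median 0.21). No marker passed at a limma adjusted p under 0.05 (0 of 9, against 0.0% of all genes), 0 of 9 had an unadjusted p under 0.05 (4.34% of all genes), and none of the 9 had groups without overlap (2.41% of all genes). Differences ran between -0.15 ± 0.17 for Kdr and 0.70 ± 0.47 for Eng. Fcgr2b differed by 0.41 ± 0.25 (95% interval -0.12 to 0.94) and Tek by 0.47 ± 0.32 (-0.22 to 1.16), with limma adjusted p = 0.995 for both. The exact permutation p was 0.0571 for Fcgr2b and 0.114 for Tek, unadjusted over the 10 markers. The intervals are wide: for Clec4g the difference of 0.36 ± 0.60 had an interval of -0.92 to 1.65.

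PB against control gave 5 higher and 4 lower (Stab2, Clec4g, Pecam1 and Eng), with a median of 0.19 against -0.01 over all genes tested. Single arrays moved this median widely. Among PB mice, leaving out replicate 5 gave 0.0027, replicate 2 gave 0.041, replicate 3 gave 0.098 and replicate 1 gave 0.55. Among control mice, leaving out replicate 1 gave 0.084, replicate 4 gave 0.11 and replicate 2 gave 0.28. It was 0.079 on the authors' normalised values, 0.084 without background correction, 0.059 with a background model fitted on all rows and 0.31 with array weights. Again 0 of 9 passed at a limma adjusted p under 0.05 (0.0712% of all genes), 0 of 9 had an unadjusted p under 0.05 (10.2% of all genes) and 0 of 9 had groups without overlap (3.48% of all genes). By exact permutation of single markers none was under 0.05. The limma adjusted p-values ran between 0.572, for Kdr, and 0.996, for Eng. Kdr differed by 0.30 ± 0.16 (SE), Stab1 by 0.37 ± 0.30, Tek by 0.35 ± 0.30 and Fcgr2b by 0.34 ± 0.23. Clec4g differed by -0.05 ± 0.57 and Eng by -0.01 ± 0.44, and these 2 had the largest standard errors of the 10 markers. With arrays scaled to equal medians in place of quantile normalisation, the median over all genes tested moved to -0.23 and that of the markers to -0.15, with 4 higher and 5 lower.

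DCA against PB gave 7 higher and 3 lower (Stab1, Lyve1 and Kdr), with a median of 0.11 against -0.00 over all genes tested. Lyve1 is in this count though it was detected on only 1 of 4 DCA arrays. It passed the filter mainly through the PB arrays, so its direction here carries no weight. The median was 0.0074 on the authors' normalised values, with 5 higher and 5 lower, 0.0027 with a background model fitted on all rows, 0.021 without background correction, 0.051 with a background offset of 50 and -0.14 with array weights. Leaving out DCA replicate 3 gave 0.049, and leaving out PB replicates 2 or 5 singly gave 0.21 and 0.29. None of the 10 passed at a limma adjusted p under 0.05 (0.13% of all genes) and none had groups without overlap (5.98% of all genes). Kdr alone had an unadjusted p under 0.05, which 14.6% of all genes had in this comparison. Its DCA minus PB difference was -0.45 ± 0.16 (SE, 95% interval -0.79 to -0.10), with means of 4.62 ± 0.24 in DCA livers (SD, n = 4) and 5.07 ± 0.25 in PB livers (SD, n = 5). The limma p was 0.0148 and the adjusted p was 0.243. The exact permutation p was 0.0317, where 4 against 5 arrays can reach 0.0159. On 2 of the 4 DCA arrays Kdr was undetected, so this difference lies at the detection limit. Scaling to equal medians moved the median over all genes tested to 0.32 and that of the markers to 0.43. The 3 comparisons share arrays and are not independent of each other.

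**Figure D3:**
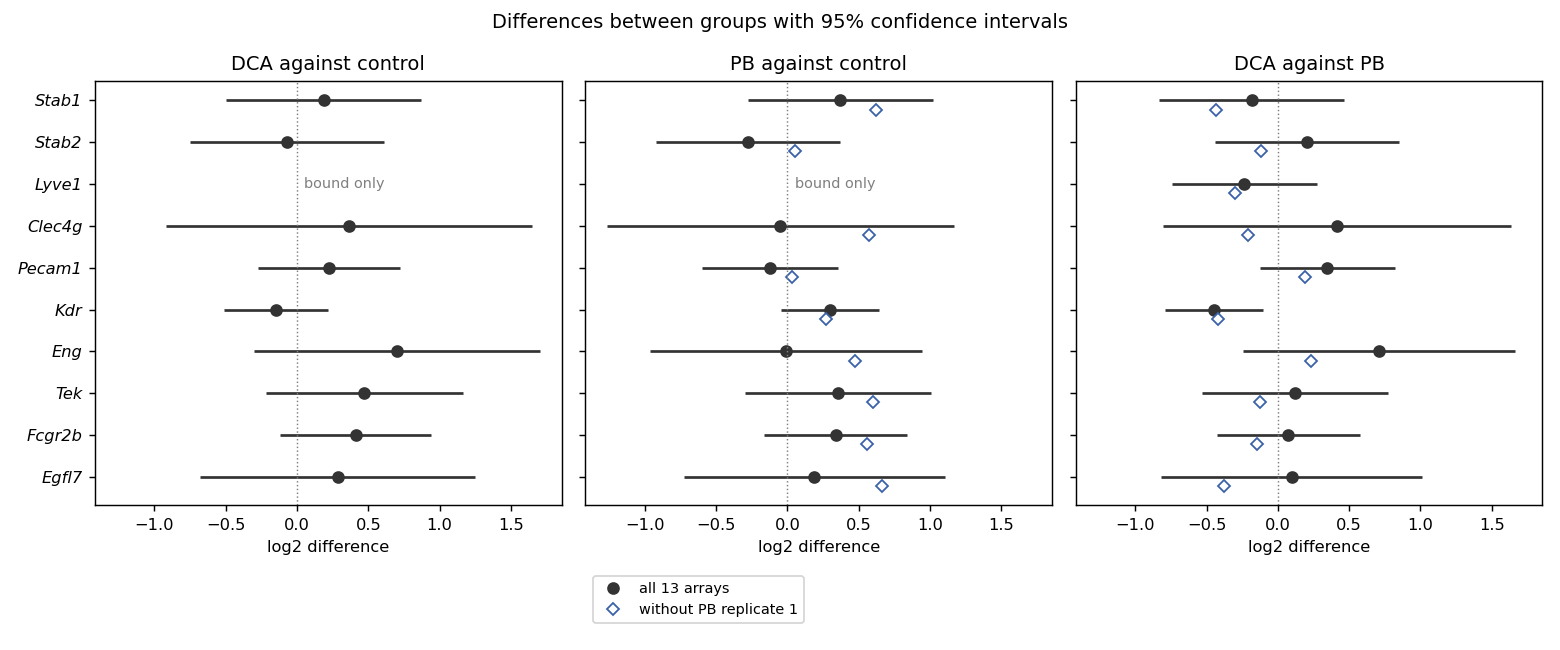
Log2 difference of each endothelial marker for DCA against control, PB against control and DCA against PB, over all 13 arrays (filled points with 95% intervals) and, for the PB comparisons, without PB replicate 1 (open diamonds, no interval drawn). Every interval over all arrays spans 0 except that of Kdr for DCA against PB (-0.79 to -0.10). Without PB replicate 1 the 9 markers drawn lie above 0 for PB against control. That array was left out for its low values of most of these markers, so this shift was partly fixed in advance. Lyve1 has only a bound against control and is not drawn there.

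Without PB replicate 1, the PB against control direction was positive for 9 of 9 markers, with a median of 0.55 against 0.00 over all genes tested. That array was left out because it was lowest for 7 of these same 10 markers. A higher PB mean and a smaller PB spread for most of them were therefore partly fixed in advance. The values without it describe its weight and are no separate support for a PB difference. No marker passed (0 of 9 by limma, against 0.0593% of all genes, lowest adjusted p = 0.262), and 4 had an unadjusted p under 0.05, against 11.4% of all genes in the same fit. These were Egfl7 (0.66), Stab1 (0.62), Tek (0.60) and Fcgr2b (0.55). The DCA against PB direction was then negative for 8 of 10, among them Lyve1, with the limit given above. The median was -0.18 in place of 0.11, and again 0 of 10 passed (lowest limma adjusted p = 0.256, with 0.0593% of all genes called). In that comparison 1 of 10 had an unadjusted p under 0.05, against 16.4% of all genes. The sign for Clec4g, Eng, Pecam1 and Stab2 against control, and for Clec4g, Egfl7, Fcgr2b, Stab2 and Tek between DCA and PB, changed when this 1 array was left out.

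The endothelial markers varied more among mice of the same group than most genes did. Their median SD within groups was 0.50 on the log2 scale, against 0.28 over all genes tested, and their median range was 1.67 against 0.999. Without PB replicate 1 the median ranges were 1.23 and 0.93. Clec4g's SD of 0.98 lay above that of 99.2% of tested genes, Eng's of 0.76 above 97.5%, and Egfl7's of 0.73 above 97.1%. These SDs pool the 3 groups, and the PB group, which holds the low replicate 1, had the largest. There the SD was 1.46 for Clec4g, 1.14 for Eng and 1.08 for Egfl7. In DCA and control livers it was 0.21 and 0.57 for Clec4g, 0.25 and 0.38 for Eng, and 0.35 and 0.32 for Egfl7. Kdr's SD of 0.23 lay above only 31.6%. In a piece of whole liver, fewer endothelial cells and less of these RNAs per cell cannot be told apart.

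Many of the markers moved together from array to array. Over the 45 pairs of markers and 13 arrays, 36 correlations were above 0 and the median Pearson's r was 0.67. That median was 0.49 without PB replicate 1 and 0.33 without the 2 farthest arrays of each pair. After Benjamini-Hochberg adjustment over the 45 pairs, 21 passed by Pearson's r and 13 by both Pearson's r and Spearman's rho (permutation tests). The share of passing pairs among all genes tested was not computed. These counts therefore do not show that the markers correlate more than other genes do. Passing pairs without PB replicate 1 were not counted. Clec4g and Eng had r = 0.94 and rho = 0.86 (adjusted permutation p = 0.00030 and 0.00217), and r = 0.75 without the 2 arrays farthest from the Clec4g median, control replicate 4 and PB replicate 1. Stab1 and Egfl7 had r = 0.87 and rho = 0.97 (adjusted permutation p = 0.00018 and 0.00045), and r = 0.93 without the 2 farthest arrays, DCA replicate 3 and PB replicate 1. Tek and Fcgr2b had r = 0.93 and rho = 0.90 (adjusted permutation p = 0.00018 and 0.00135), and r = 0.81 without control replicate 4 and PB replicate 1. Leaving out PB replicate 1 alone gave r of 0.79 for Clec4g and Eng, 0.94 for Stab1 and Egfl7 and 0.91 for Tek and Fcgr2b over 12 arrays. With group means removed r was 0.97 for Clec4g and Eng, 0.90 for Stab1 and Egfl7 and 0.92 for Tek and Fcgr2b.

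Stab2 was different. Its r with Clec4g was 0.81 over 13 arrays (rho = 0.39, adjusted permutation p = 0.0625 and 0.325), 0.24 without the 2 farthest arrays and 0.09 without PB replicate 1, so the relation rests on that array. Its r with Eng was 0.73 over 13 arrays and -0.14 without PB replicate 1. Kdr and Lyve1 also stood aside. The 17 pairs that include either gene had a median r of -0.00, and the 28 pairs of the other 8 markers, a division made after the values were seen, ran between 0.44 and 0.94 with a median of 0.80. Without PB replicate 1 those 28 pairs ran between -0.38 and 0.94, with a median of 0.63. Kdr and Lyve1 are also the 2 markers detected on the fewest arrays. Pecam1 and Kdr had r = -0.63 and rho = -0.31 (adjusted permutation p = 0.0494 and 0.496), and r = -0.13 without PB replicates 1 and 3, on which that relation rests. All arrays share 1 quantile normalisation.

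**Figure D4:**
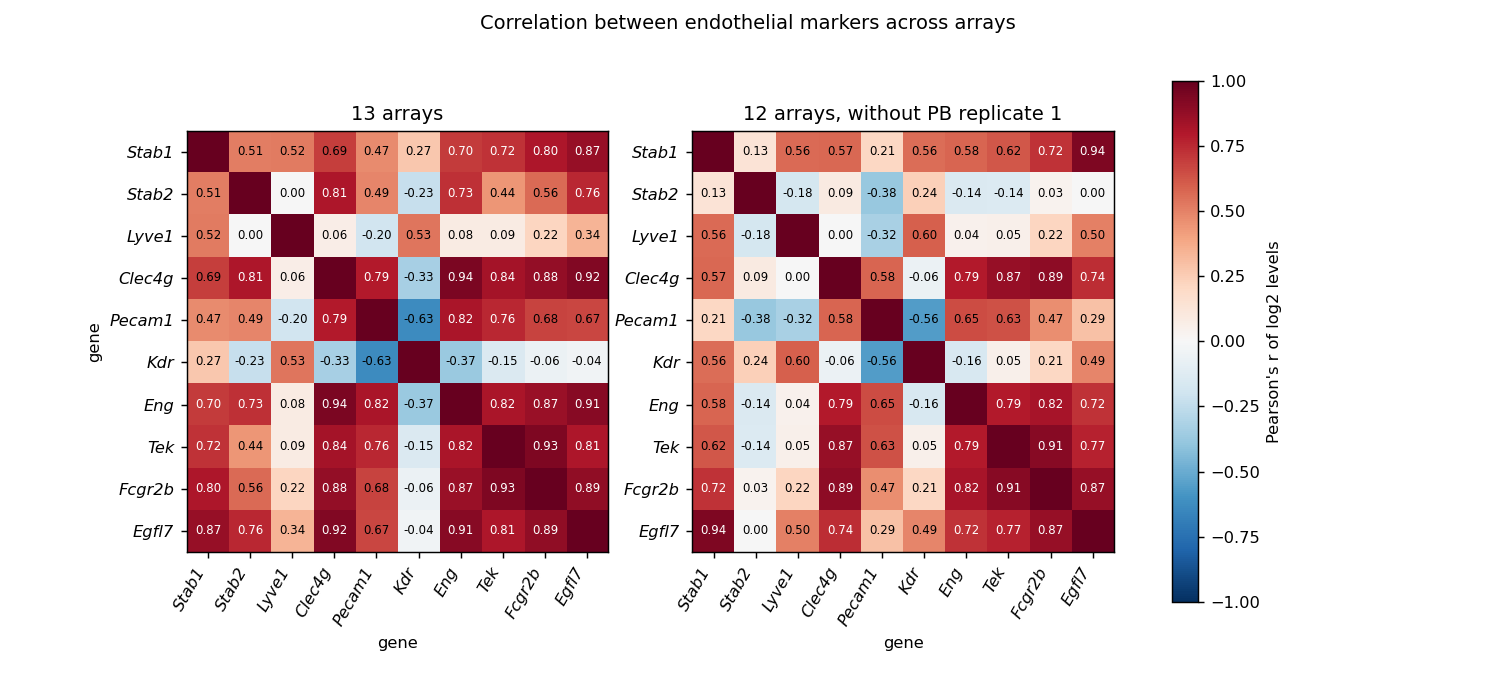
Pearson's r between log2 levels of each pair of endothelial markers, over 13 arrays (left) and over 12 arrays without PB replicate 1 (right). Clec4g, Eng, Tek, Fcgr2b and Egfl7 stay correlated on the right (r between 0.72 and 0.91), whereas every r of Stab2 is 0.24 or lower.

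The windows of 250 bases before the annotated starts of Eng, Egfl7 and Fcgr2b are shown because these 3 markers moved together across arrays and their windows lie outside the annotated span of the gene. The sequences are RefSeq's for build GRCm38.p6, written 5′ to 3′ on the gene's strand, and capitals mark AGGAAG or its reverse complement CTTCCT, a core sequence that ETS-family factors, regulators of many endothelial genes, can bind.
Eng, chr2:32646345-32646594, plus strand: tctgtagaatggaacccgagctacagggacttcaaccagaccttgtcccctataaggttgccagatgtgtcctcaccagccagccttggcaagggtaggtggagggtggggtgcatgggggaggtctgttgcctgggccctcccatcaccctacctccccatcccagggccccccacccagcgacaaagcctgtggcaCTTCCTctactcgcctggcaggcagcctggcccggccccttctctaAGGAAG
Egfl7, first annotated start, chr2:26580833-26581082, plus strand: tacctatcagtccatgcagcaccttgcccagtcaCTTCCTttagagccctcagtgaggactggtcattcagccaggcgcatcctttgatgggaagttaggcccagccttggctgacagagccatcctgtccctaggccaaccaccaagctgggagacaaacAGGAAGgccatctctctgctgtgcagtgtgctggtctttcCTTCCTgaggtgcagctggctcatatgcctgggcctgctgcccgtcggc
Fcgr2b, chr1:170976072-170976321, minus strand: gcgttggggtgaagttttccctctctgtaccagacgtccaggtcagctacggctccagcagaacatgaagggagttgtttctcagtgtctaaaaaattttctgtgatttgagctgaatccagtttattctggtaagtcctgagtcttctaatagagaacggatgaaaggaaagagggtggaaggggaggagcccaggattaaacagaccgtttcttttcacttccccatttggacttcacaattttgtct
The motif occurs 2 times in the Eng window, 3 times in the Egfl7 window and 0 times in the Fcgr2b window. RefSeq gave 10 windows for 8 of the markers, and 6 of the 10 held it on either strand, against 29.5% of 32851 windows of the same length. Several of the 10 windows are those of Egfl7, and more than 1 of these held it, so the 6 windows are not separate genes. The difference from the share of all windows was not tested. A second motif, GATAA or TTATC, the core of GATA-factor sites, was in 1 of the 10, against 22.6% of all windows. The motif searches are on both strands and describe letters only.

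Of the genes outside the 10 markers, those whose levels followed the markers' mean most closely (each marker centred and scaled over the 13 arrays) were Tmem2, Ltbp4, Centd3, Sh3tc1, Ldb2, Stard8, Gpihbp1, Osmr, Wtip and Mlh3, with r between 0.92 and 0.95 over 13 arrays. Gpihbp1 encodes the protein that anchors lipoprotein lipase to capillary endothelium. Without PB replicate 1 these r ran between 0.82 and 0.93 over 12 arrays. The genes were ranked by this likeness, so the values describe and do not test it.

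No gene of the other endothelial and pathway lists passed the test in any comparison (limma). Of 11 tested general endothelial genes (adhesion, junction and transcription factor genes shared by all endothelium), DCA against control gave 11 higher and 0 lower with a median of 0.39, and PB against control gave 8 higher and 3 lower with a median of 0.13. All 11 were also higher for DCA under cyclic loess, the authors' normalised values and scaling to equal medians, with medians of 0.38, 0.16 and 0.49. For PB against control 11 were higher without PB replicate 1 (median 0.34), and 6 were higher after scaling to equal medians. Esam, a junction protein, differed between PB and control livers by 0.68 ± 0.23 (limma adjusted p = 0.391; 0.58 ± 0.24 without PB replicate 1), and Mmrn2, a matrix protein of endothelium, differed between DCA and control by 0.65 ± 0.36 (adjusted p = 0.995). Of 11 further sinusoidal genes, 9 were higher and 2 lower for DCA against control (median 0.24), and 5 higher and 6 lower for PB against control (median -0.06). The PB direction of that list turned to 8 higher and 3 lower (median 0.19) without PB replicate 1. It was 1 higher and 10 lower (median -0.21) after scaling to equal medians, which moved the median over all genes tested to -0.23. These included Gpr182, a receptor of sinusoidal endothelium, at 0.47 ± 0.45 for DCA and -0.24 ± 0.43 for PB (0.19 ± 0.28 without PB replicate 1).

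Genes of veins, arteries and remodelled sinusoids gave 7 higher and 4 lower of 11 for DCA against control (median 0.07) and 6 higher and 5 lower for PB against control (median 0.03, and 0.01 without PB replicate 1). After scaling to equal medians the PB counts of this list were 3 higher and 8 lower, with a median of -0.23 over all genes tested. Plvap, a diaphragm protein of ordinary fenestrated capillaries, averaged 8.17 ± 0.36 in DCA, 7.21 ± 0.96 in PB and 8.05 ± 0.33 in control livers, and the PB minus control difference of -0.84 ± 0.39 did not pass (limma adjusted p = 0.491) and was -0.44 ± 0.24 without PB replicate 1. Cav1, the caveolae protein, averaged 5.14 ± 0.54 in DCA, 5.51 ± 0.67 in PB and 4.77 ± 0.32 in controls, with a PB minus control difference of 0.74 ± 0.32 (limma adjusted p = 0.467), and of 0.92 ± 0.31 without PB replicate 1. The 3 tested lymphatic genes had medians of 0.12 for DCA and -0.00 for PB against control (0.15 without PB replicate 1), and 1 of them, Reln, is also a stellate cell gene.

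Ligands and partners of the growth receptors gave no call either. Vegfa, the ligand of Kdr, averaged 8.55 ± 0.32 in DCA, 9.20 ± 0.46 in PB and 8.46 ± 0.27 in control livers, with a PB minus control difference of 0.74 ± 0.23 (limma adjusted p = 0.326) and a DCA minus PB difference of -0.66 ± 0.23 (adjusted p = 0.240). Leaving out PB replicate 1 gave 0.86 ± 0.23 for PB minus control and -0.77 ± 0.23 for DCA minus PB. Of the 6 tested genes of this pathway, 4 were higher for DCA and 2 for PB against control. Of the 4 tested genes of the angiopoietin pathway, 3 were higher for DCA and 2 for PB. Tie1 and Ptprb stand both in this list and in that of general endothelial genes. In the pathway of Eng, 5 of 11 tested genes were higher for DCA and 5 for PB against control. Tgfb1, a ligand that endoglin helps to bind, averaged 6.08 ± 0.36 in DCA livers and 5.28 ± 0.35 in PB livers without overlap, as did 5.98% of all genes (0.79 ± 0.22, limma adjusted p = 0.177, and 0.68 ± 0.22 without PB replicate 1). Of the 4 pericentral genes (Wnt ligands and related genes of central vein endothelium), 4 were higher for DCA and 3 for PB. Of the 5 Notch pathway genes, 3 were higher for each chemical, and Hey1 among them is also in the list of veins and arteries. The PB counts of these 5 lists were the same without PB replicate 1. Scaling to equal medians changed several, to 9 of 11 higher for DCA and 1 of 11 for PB in the Eng pathway. For PB it gave 1 of 4 in the pericentral list, 1 of 4 in the angiopoietin list and 1 of 6 in the Vegfa list. The same scaling moved the median over all genes tested to 0.07 for DCA and -0.23 for PB against control. Cyclic loess gave 1 of 5 higher for DCA in the Notch list.

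Among 11 tested scavenger and Fc receptors outside the 10 markers, 5 were higher for DCA and 3 for PB against control, with medians of -0.07 for DCA and -0.09 for PB. Mrc1, Cd36 and Fcgrt stand both in this list and in that of further sinusoidal genes. Scarb2, a lysosomal membrane protein, averaged 8.58 ± 0.17 in DCA, 7.76 ± 0.35 in PB and 8.46 ± 0.23 in control livers. Its DCA and PB values did not overlap, as for 5.98% of all genes (0.81 ± 0.18, limma adjusted p = 0.0982), and PB minus control was -0.70 ± 0.18 (adjusted p = 0.219). With PB replicate 1 left out, DCA minus PB was 0.72 ± 0.18 and PB minus control -0.61 ± 0.18. After scaling to equal medians, PB against control gave 1 higher and 10 lower in this list, with a median of -0.23 over all genes tested. Without PB replicate 1 that comparison gave 5 higher and 6 lower. The lists total 10 and were chosen with earlier results of these data known.

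The lists of 3 other cell types were also lowest on the array where the endothelial list was lowest. On PB replicate 1 the mean log2 level of the endothelial list was 5.61, of the stellate cell list 5.43, of the Kupffer cell and macrophage list 6.04 and of the erythroid list 7.99, each the lowest of the 13 arrays. The hepatocyte list there was 11.55, within its range of 11.42 to 11.75, and only control replicate 2 was lower. By summed intensity the hepatocyte list was instead highest on PB replicate 1, at 68637, and so was the cholangiocyte list, at 3834. The summed normalised intensity of the 10 endothelial markers ran between 2382 and 3128 in DCA, 648 and 4105 in PB and 1683 and 3156 in control livers. For 7 tested stellate genes (Hgf and Col3a1 were detected on no array) it ran between 1981 and 3238 in DCA, 508 and 3755 in PB and 1047 and 2992 in control livers. For 11 Kupffer cell and macrophage genes, with Cd5l detected on no array, it ran between 1728 and 2247 in DCA, 920 and 2550 in PB and 1448 and 4345 in control livers. Between groups the stellate list had the direction of the endothelial one: 6 of 7 genes were higher for DCA against control (median 0.32), and 5 of 7 for PB against control (median 0.04). Without PB replicate 1, 7 of 7 stellate genes were higher for PB against control (median 0.38). After scaling to equal medians 2 of 7 were (median -0.07, with -0.23 over all genes tested). Of the 11 Kupffer cell and macrophage genes, 7 were higher for DCA against control (median 0.08). For PB against control 0 of 11 were higher over all arrays (median -0.17) and 5 of 11 without PB replicate 1 (median -0.02). Control replicate 2 stood apart for this list, with a mean log2 level of 8.12, where the next control was at 6.75. PB replicates 2, 4 and 5 lay above that next control, at 6.92, 6.93 and 7.08. PB replicates 1 and 3 lay below it, at 6.04 and 6.52. The weight of control replicate 2 in the counts of this list was not tested. The erythroid median was -1.01 for DCA and -0.85 for PB (-0.74 without PB replicate 1). No gene of these 3 lists passed (limma). Of the 4 tested erythroid genes, 3 had an unadjusted limma p under 0.05 for DCA against control, as did 4.34% of all genes. For PB against control 3 of the 4 did, as did 10.2% of all genes. The part of these cells in the endothelial values, among them those of Stab1, Fcgr2b and Pecam1, which macrophages or platelets also express, was not tested. Hepatocyte sums ran between 62928 and 67932 in DCA, 62468 and 68637 in PB and 60243 and 66030 in controls.

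Platelet genes were 157 to 160 in summed intensity in DCA livers, 153 to 199 in PB livers and 147 to 929 in controls, where control replicate 4 was the high array. Pecam1 on that array was 4.98, the lowest control. Erythroid sums, with Epb4.2 detected on no array, ran between 4947 and 8381 in DCA, 3548 and 9416 in PB and 7872 and 10329 in control livers. Neutrophil sums (3 genes, Ngp detected on no array) were 88.0 to 153 in DCA, 101 to 180 in PB and 73.9 to 449 in control livers. Cholangiocyte sums (4 genes, Krt19 detected on no array) were 1978 to 2562 in DCA, 2004 to 3834 in PB and 1901 to 2741 in control livers, and T and NK cell sums (3 genes, Cd8a detected on no array) were 69.9 to 95.5 in DCA, 83.3 to 111 in PB and 66.6 to 99.4 in control livers. No gene of the B cell list passed the filter. Fcgr2b is also a B cell gene.

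**Figure D5:**
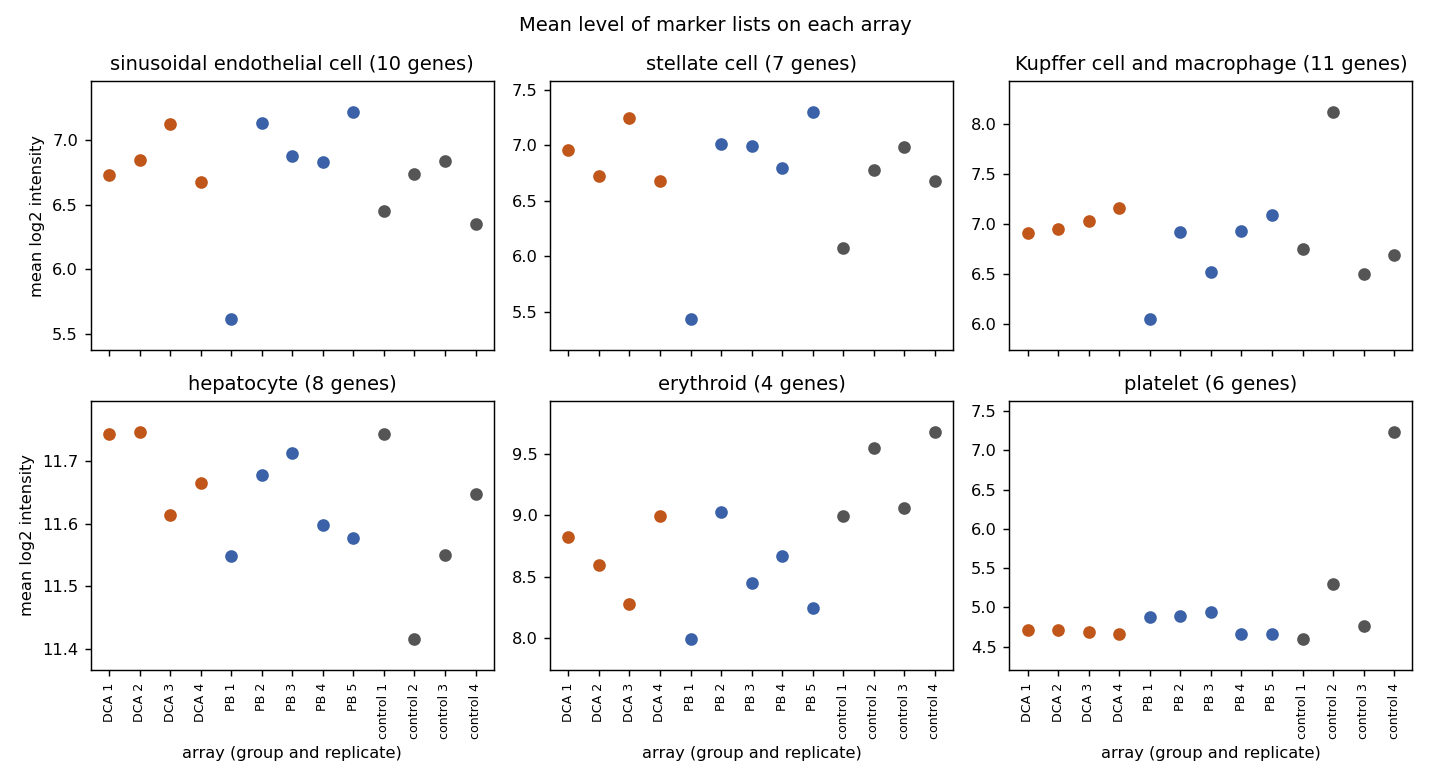
Mean log2 level of the tested markers of each of several cell types on each array, for DCA, PB and control livers. PB replicate 1 is lowest for the endothelial, stellate, Kupffer and erythroid lists (5.61, 5.43, 6.04 and 7.99). Its hepatocyte list (11.55) lies within the range of the other arrays, with only control replicate 2 lower.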

How the data were processed

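Total RNA of 13 liver pieces was hybridised as biotin-labelled cRNA, 1 Illumina bead array per mouse, and groups were read from the labels. GenomeStudio is the only tool named, per the submitters' processing notes, without a version. The authors deposited a table of 18138 genes with a linear intensity and a detection p-value per array, both as deposited, and a second table of 18110 genes with the authors' own normalised intensity, whose steps are not given in the sources used here and which served as an alternative. Probes of a gene were already merged in the deposited intensity.

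The normexp model of limma was used to correct the background, fitted from the detection p-values of 13609 single-probe rows (their p-values are steps of 1 in 798 negative controls), with an offset of 16, then quantile normalisation and log2. Genes detected at p under 0.05 on at least 4 arrays were tested (8431, 46.5%). Group means over all 13 arrays were fitted with lmFit and eBayes of limma 3.58.1 in R 4.3.3, two-sided, with Benjamini-Hochberg adjustment over all genes tested. Errors of differences are standard errors and group values are means ± SD. Single markers were also compared by exact permutation over arrays (SciPy 1.17.1), and correlations between markers were tested with 100000 permutations. In simulated data, a log2 change of 1 was called for 73.1% of changed genes for DCA against control, 67.2% for PB against control and 80.6% for DCA against PB, and a change of 0.5 for 13.4%, 16.4% and 22.4%. The changed genes were drawn from all genes tested, whose median SD within groups was 0.28, against 0.50 for the markers. These rates are therefore not those of the markers, and may be lower for most of them. The number of arrays limits the precision.

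The 10 markers and all gene lists were chosen with earlier results of these data known. All 10 markers are named, and from the other lists up to 4 genes with the largest difference per comparison could be named. The 10 genes most like the markers were ranked by Pearson's r to the mean of the scaled markers. Alternatives were the background fit, offset, normalisation, filter, samples in the fit, array weights and each array left out. Promoter sequences are RefSeq's for GRCm38.p6. No build is named for the arrays. Gene symbols are those of the deposited table.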

Additional observations from a re-analysis of the deposited data

Results flagged for a closer look

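Of 30 sets of values (10 markers in 3 groups), 5 held an array far from the rest of its group by Dixon's criterion. The nominal rate of that criterion is about 1 in 20 for independent sets. These sets are not independent, since many markers moved together and 2 of the 5 flags are on PB replicate 1. The share over all genes tested was not computed, so no excess is claimed. Stab2 was lowest on PB replicate 1, at a log2 level of 6.76, where the next PB array was at 8.18. Egfl7 was lowest on the same array, at 6.27, with the next at 8.38. Lyve1 was highest among the DCA arrays on DCA replicate 3, at 5.51 against 4.50 for the next, and this was the only DCA array on which it was detected. Clec4g was lowest among the DCA arrays on DCA replicate 4, at 10.23 against 10.61 for the next, inside the range of the controls. Kdr was highest among the controls on control replicate 2, at 5.05 against 4.71 for the next.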

How the results depend on the processing

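The 10 markers gave 634 values under 23 alternatives per comparison, with Lyve1 against control left out because it has only a bound there. By limma, no marker passed at an adjusted p under 0.05 under any of them; the lowest adjusted p was 0.711 for DCA against control, 0.262 for PB against control and 0.0789 for DCA against PB (Kdr, array weights). The direction held in 599 values and changed in 35. Part of the 599 was fixed in advance. Leaving out an array of the group outside a comparison cannot alter that comparison's difference. Changing the filter or the groups in the fit cannot alter it either. The count of 599 therefore overstates how stable the directions were. None of the 35 passed before or after, and the cause was not tested. Leaving out each array in turn changed the direction for DCA against control of Stab1 (-0.037 to 0.37) and Stab2 (-0.22 to 0.017), for PB against control of Clec4g (-0.34 to 0.57), Eng (-0.27 to 0.47), Pecam1 (-0.22 to 0.034) and Stab2 (-0.40 to 0.051) and for DCA against PB of Clec4g (-0.21 to 0.70), Egfl7 (-0.38 to 0.28), Fcgr2b (-0.14 to 0.18), Stab2 (-0.12 to 0.33) and Tek (-0.13 to 0.31). Array weights turned the difference for PB against control to 0.31 for Clec4g, 0.29 for Eng and 0.023 for Pecam1 and for DCA against PB to -0.15 for Clec4g, -0.35 for Egfl7, -0.14 for Fcgr2b and -0.099 for Tek. The authors' normalised values turned the difference for PB against control to 0.012 for Clec4g and 0.070 for Eng and for DCA against PB to -0.0011 for Egfl7 and -0.0034 for Fcgr2b. A background fit on all rows turned the difference for PB against control to 0.17 for Eng and for DCA against PB to -0.062 for Egfl7. Cyclic loess turned the difference for PB against control to 0.036 for Eng. Scaling to equal medians turned the difference for DCA against control to 0.024 for Stab2 and for PB against control to -0.19 for Egfl7 and for DCA against PB to 0.26 for Stab1. Leaving out the background correction turned the difference for PB against control to 0.0035 for Clec4g and 0.071 for Eng. An offset of 50 turned the difference for PB against control to 0.051 for Eng. Of all genes tested, 11 were called for DCA against PB, with 0 to 14 when single arrays were left out. That count was 293 with array weights, 2 with the authors' values, 1 with a background fit on all rows, 4 with cyclic loess, 0 with scaling to equal medians, 2 with no background correction, 0 with no filter, 4 with an offset of 50 and 18 with only those groups in the fit. For PB against control, 6 genes were called, with 1 to 13 when single arrays were left out, 2 with a background fit on all rows, 12 among genes detected on all 13 arrays, 0 with scaling to equal medians and 2 with only those groups in the fit. For DCA against control limma called 0 genes, with 366 at an unadjusted p under 0.05, and 0 under every alternative run. The median over the markers for DCA against PB turned to -0.14 with array weights and -0.18 without PB replicate 1. Lyve1, Kdr, Pecam1 and Tek could not be tested among genes detected on all 13 arrays. Levels near the lowest detected level limit what Lyve1 and Kdr can show. No paired analysis was possible because the labels give animal numbers only and no number shared between groups.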
